A study of Mus musculus with 24 samples.

Results

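The proteasome subunits were measured here as 35 genes of the 27962 gene names on the array, the genes whose symbols are Psma, Psmb, Psmc or Psmd followed by a number, with Psmb8, Psmb9 and Psmb10 of the immunoproteasome left out. They were carried by 50 of 41174 probes, and membership was set by the gene names, without measured values, although the family was taken up with earlier results of these data known. The 35 genes comprised 15 genes of the 20S core (8 alpha and 7 beta subunits), 17 genes of the 19S regulatory particle (6 ATPases and 11 other subunits) and 3 chaperones that assemble the base of the 19S particle (Psmd5, Psmd9 and Psmd10). A gene is described by the brightest of its probes over all 24 arrays, and 13 genes had more than 1 probe.

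The 26S proteasome degrades proteins that carry ubiquitin chains and removes many oxidized or misfolded proteins. Its 20S core is a barrel of outer alpha rings, which gate the entrance, and inner beta rings, which hold the proteolytic sites, and the 19S particle binds ubiquitin chains, removes them and unfolds the substrate with a ring of ATPases. In mammalian cells the subunit genes can be raised together by the transcription factor NRF1, the product of Nfe2l1, when proteasome capacity is short, and NRF2, the product of Nfe2l2, raises some of them after oxidative stress.

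The samples were mouse embryonic fibroblasts (MEFs) of 1 Ku70-/- line, so that every group, controls included, lacked Ku70, a protein of non-homologous end joining. In the first set of 15 arrays, 3 arrays each held RNA of untreated controls, of cells given 20 mM KBrO3, an oxidizing agent, for 1 hr and collected at 4 or 24 hr after its start (KBrO3 alone), and of cells that also had 150 μM bisphenol A (BPA) before, during and after KBrO3 (co-exposure, 4 or 24 hr). The second set of 9 arrays held 3 untreated controls and 3 arrays each of cells given 150 μM BPA alone, labeled 4 or 24 hr (5 or 25 hr in BPA by the study's methods), and each treatment was compared with the controls of its own set. The comparisons ask how each exposure changed transcript levels and whether BPA modified the response to KBrO3. The controls of the first set carry a 4 hr label, so that the 24 hr comparisons also contain any change of untreated cells with time in culture, and the controls of the second set carry no time.

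All values are log2 signals minus the 75th percentile of their array, so that 0 is the level exceeded by 25% of the array's probes and a difference of 1 is a doubling. A gene was called higher or lower at a limma p under 0.05 after Benjamini-Hochberg adjustment over all probes tested. The p-values and SEs rest on the spread within groups of 3 arrays, pooled over a set. The 4 hr arrays of KBrO3 alone lay on 1 slide and those of co-exposure on another. With the slide as a random block, the correlation within slides was 0.63 (KBrO3 arrays and their controls) and 0.12 (BPA arrays and theirs). The spread within these 4 hr groups thus leaves out variation between slides, and their p-values and SEs can be too small. Where a pair of values or groups is given for 1 time, KBrO3 alone comes first and co-exposure second. Of the 35 genes, 34 were above background on all 24 arrays and none of their spots was saturated. Psma8, an alpha subunit found mainly in the testis, was above background on 0 of the 15 arrays of the first set and on 9 of 9 of the second, and it was tested in the second set. On each array 57.7% to 68.1% of spots were well above background in the first set and 76.4% to 79.4% in the second, which used another software version. A difference between the sets in this measure is therefore not read as one of expression. Fibroblast markers (Col1a1, Col1a2, Col3a1, Vim, Pdgfrb, S100a4 and Thy1) were above background on every control array. Thy1 was above it on 10 of the 15 arrays of the first set. In each of the 2 KBrO3 groups of 24 hr, 6 of the 7 markers were above it on all arrays. Among 4 markers of epithelium, 4 of blood cells and 3 of endothelium, Ptprc of blood cells and Pecam1 of endothelium were above background on 0 of 24 arrays. Krt5 and Krt14 of epithelium, Cd3e of blood cells and Tek of endothelium were above it on 24 of 24, Cd79a on 10 of 15 and 9 of 9 arrays of the sets, Itgam on 1 and 7, Cdh1 on 0 and 9, Cdh5 on 0 and 8 and Epcam on 1 and 2, and the part of other cells in the results was not tested. The log2 of the summed signal of the 7 fibroblast markers was 10.51 to 10.61 in the controls of the first set. With KBrO3 alone and co-exposure it was 10.40 to 10.50 and 9.95 to 10.01 at 4 hr and 9.31 to 9.49 and 8.72 to 8.97 at 24 hr. Its part in the results below was not tested. The probe of Xrcc6, which encodes Ku70, was above background on 24 of 24 arrays, and since its position relative to the deletion is not given in the sources used here it does not check the genotype.

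After KBrO3, most proteasome genes were higher than in the controls, with or without BPA and at both times. At 4 hr after KBrO3 alone, 30 of the 34 genes tested were called higher, against 34.5% of all genes, and 1 was called lower, against 36.6%. The median log2 difference of the 34 genes was 0.61, while the median over all genes was 0.046. With co-exposure at 4 hr, 29 genes were called higher (40.4% of all genes) and 1 lower (38.3%), with a median of 0.53 against 0.051 over all genes. At 24 hr after KBrO3 alone, 23 genes were called higher (29.7% of all genes) and 1 lower (36.7%), and the median was 0.48 against −0.069. With co-exposure at 24 hr, 30 were called higher (31.5% of all genes) and 2 lower (38.8%), and the median was 0.53 against −0.11. These 4 comparisons share the 3 control arrays of the first set, and since RNA was taken from whole dishes, a change in the number of cells that express a gene and a change of RNA per cell cannot be told apart. In each of them 23 genes were called higher, against 14.2% of all genes that were higher in all 4: 16 of the 17 genes of the 19S particle, 5 genes of the core (Psma1, Psma2, Psma4, Psmb3 and Psmb7) and the chaperones Psmd5 and Psmd9.

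The rises were mostly under a doubling. Under the thresholds of the study's methods, a Bonferroni-adjusted p under 0.01 and a fold change over 1.5, 14 genes were higher at 4 hr after KBrO3 alone (13.8% of all genes) and 13 with co-exposure (15.3%). At 24 hr the counts were 10 (7.09% of all genes) and 12 (9.49%), and none of the genes was lower under these thresholds in the 4 comparisons. Psmb7, Psmc4, Psmc6, Psmd1, Psmd4 and Psmd11 passed them in all 4, as did 3.23% of all genes. The direction of the median held under the other scalings tried: it was 0.35 under quantile normalization, 0.61 with the array median as scale and 0.89 after normexp background correction for KBrO3 alone at 4 hr. With all 4 scalings, 20 genes were called higher in all 4 comparisons (7.63% of all genes), of which 15 belong to the 19S particle, 4 to the core (Psma2, Psma4, Psmb3 and Psmb7), and Psmd9 is a chaperone.

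**Figure D1:**
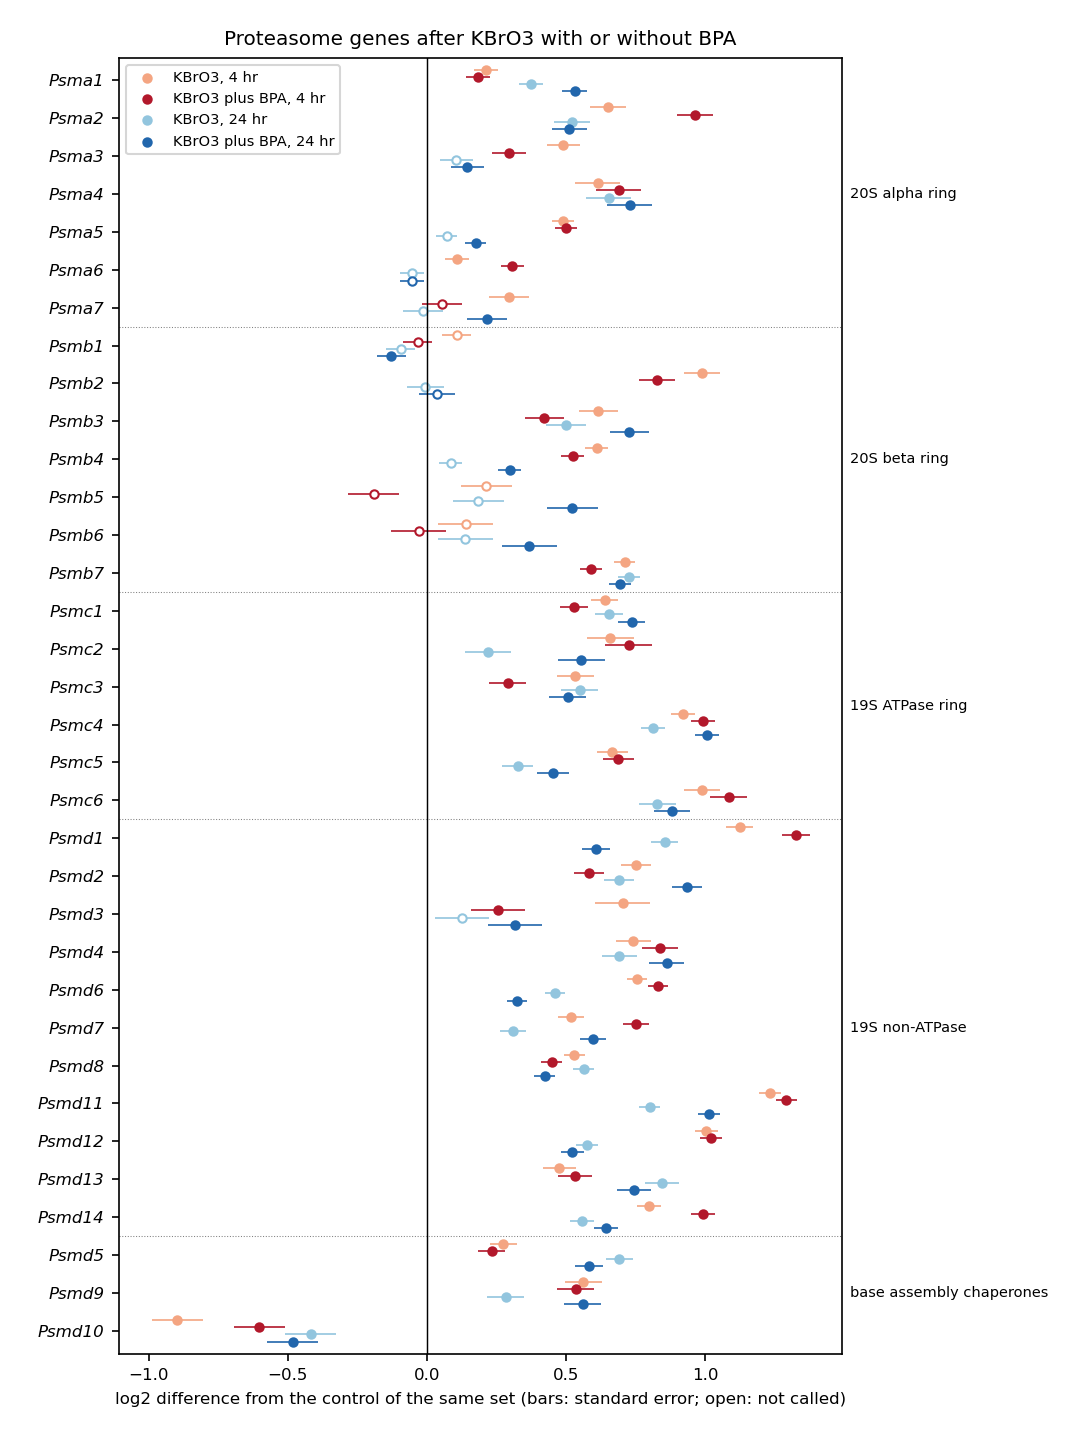
Log2 difference of each of 34 proteasome genes from the control arrays of the first set (x axis), by gene and role (y axis), after KBrO3 or co-exposure at 4 and 24 hr. Points are limma estimates of 3 against 3 arrays, bars are standard errors, and open points were not called. The 19S genes lie to the right of 0, and Psmd10 is the gene to the left of 0 in all 4 comparisons.

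All 11 non-ATPase genes of the 19S particle were called higher at 4 hr, with medians of 0.75 after KBrO3 alone and 0.83 after co-exposure, against 34.5% and 40.4% of all genes. At 24 hr 10 were called after KBrO3 alone, with a median of 0.57, and 11 after co-exposure, with a median of 0.61. Psmd11 encodes a subunit of the lid that clamps the regulatory particle onto the core. Its log2 signal was 4.41, 4.41 and 4.51 in the controls, 5.68, 5.70 and 5.65 at 4 hr after KBrO3 alone, 5.73, 5.76 and 5.72 after co-exposure, 5.22, 5.26 and 5.25 at 24 hr after KBrO3 alone and 5.50, 5.43 and 5.44 after co-exposure. Every treated array lay above every control array, and the 4 hr arrays lay above the 24 hr arrays. Psmd11 rose 2.35-fold and 2.45-fold at 4 hr and 1.74-fold and 2.02-fold at 24 hr (SE 0.039 on the log2 scale, limma adjusted p 3.6e-11, 1.9e-11, 4e-09 and 3.1e-10).

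Psmd1 and Psmd2 encode the 2 largest scaffold subunits of the base of the particle. For Psmd1 the controls were at 2.13, 2.22 and 2.31, KBrO3 alone at 3.33, 3.36 and 3.35 and co-exposure at 3.55, 3.59 and 3.51 at 4 hr, and the 24 hr arrays at 3.12, 3.05 and 3.06 and 2.83, 2.78 and 2.89. Co-exposure gave the higher arrays at 4 hr and the lower arrays at 24 hr, without overlap, and all were above the controls. The rises were 2.18-fold and 2.51-fold at 4 hr and 1.81-fold and 1.52-fold at 24 hr (SE 0.049 on the log2 scale, limma adjusted p of at most 3e-07). Psmd2 was at 4.41, 4.34 and 4.37 in the controls, 5.10, 5.14 and 5.14 and 4.90, 4.99 and 4.97 at 4 hr and 5.02, 5.05 and 5.12 and 5.39, 5.35 and 5.18 at 24 hr. It rose in all 4 comparisons, by 0.75 and 0.58 at 4 hr and 0.69 and 0.93 at 24 hr on the log2 scale (SE 0.054), and here the co-exposed arrays were the lower ones at 4 hr and the higher ones at 24 hr.

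Psmd4, a receptor for ubiquitin chains, was at 3.80, 3.85 and 3.92 in the controls, 4.63, 4.59 and 4.57 and 4.65, 4.75 and 4.68 at 4 hr and 4.52, 4.53 and 4.59 and 4.82, 4.77 and 4.56 at 24 hr. The treated arrays were above the controls, and Psmd4 rose by 0.74 and 0.84 at 4 hr and 0.69 and 0.86 at 24 hr on the log2 scale (SE 0.064, limma adjusted p of at most 1.2e-06). Psmd14, the metalloprotease that removes ubiquitin chains from substrates, was at 4.03, 3.99 and 3.91 in the controls, 4.78, 4.79 and 4.77 and 4.95, 4.94 and 5.03 at 4 hr and 4.53, 4.58 and 4.50 and 4.60, 4.61 and 4.66 at 24 hr. Its groups did not overlap with the controls at either time, and its rises were 0.80 and 0.99 at 4 hr and 0.56 and 0.64 at 24 hr (SE 0.042). The lid subunit Psmd12 was at 4.40, 4.46 and 4.43 in the controls, 5.42, 5.45 and 5.43 and 5.45, 5.41 and 5.50 at 4 hr and 4.98, 5.04 and 5.0 and 4.94, 4.91 and 5.02 at 24 hr. It thus had its higher arrays at 4 hr, with rises of 1.00 and 1.02 at 4 hr and 0.57 and 0.52 at 24 hr (SE 0.040). Psmd13, another lid subunit, was at −0.17, −0.23 and −0.12 in the controls, 0.35, 0.27 and 0.28 and 0.31, 0.42 and 0.34 at 4 hr and 0.78, 0.63 and 0.59 and 0.55, 0.50 and 0.66 at 24 hr. Its order in time was the opposite, with the higher arrays at 24 hr and rises of 0.48 and 0.53 at 4 hr and 0.84 and 0.74 at 24 hr (SE 0.060).

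The remaining non-ATPase genes Psmd3, Psmd6, Psmd7 and Psmd8 were also called higher in these comparisons, except Psmd3 at 24 hr after KBrO3 alone. Psmd3, a scaffold of the lid, changed by 0.70 and 0.26 at 4 hr and 0.13 and 0.32 at 24 hr (SE 0.098), with a limma adjusted p of 0.27 for the uncalled comparison. Psmd6 rose by 0.76 and 0.83 at 4 hr and 0.46 and 0.32 at 24 hr and Psmd8 by 0.53 and 0.45 at 4 hr and 0.56 and 0.42 at 24 hr. Psmd7, the partner of Psmd14 in the lid, rose by 0.52 and 0.75 at 4 hr and 0.31 and 0.60 at 24 hr, with the larger values under co-exposure on its brightest probe, while the other two were, at 4 hr, at 1.18 and 1.05 and at 0.834 and 0.831, and the first of these was at 0.026, not called, and 0.19 at 24 hr.

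The 6 ATPases of the 19S particle (Psmc1 to Psmc6), which form the ring that unfolds substrates, were called higher by their brightest probes in all 4 comparisons, while at 24 hr another probe of Psmc2 was called lower (−0.55 and −0.34) and another of Psmc6 was not called (0.10 and 0.039). Their medians were 0.66 and 0.71 at 4 hr and 0.60 and 0.65 at 24 hr, for KBrO3 alone and co-exposure, where 34.5%, 40.4%, 29.7% and 31.5% of all genes were called higher. Psmc6 was at 4.72, 4.78 and 4.69 in the controls, 5.74, 5.69 and 5.72 and 5.82, 5.77 and 5.85 at 4 hr and 5.68, 5.53 and 5.46 and 5.56, 5.53 and 5.74 at 24 hr. The treated arrays lay clear of the controls, and Psmc6 rose by 0.99 and 1.08 at 4 hr and 0.83 and 0.88 at 24 hr (SE 0.066). Psmc4 was at 2.90, 2.87 and 2.95 in the controls, 3.84, 3.82 and 3.81 and 3.88, 3.92 and 3.89 at 4 hr and 3.69, 3.72 and 3.74 and 3.96, 3.96 and 3.81 at 24 hr. It showed no overlap with the controls either, and its rises were 0.92 and 0.99 at 4 hr and 0.81 and 1.01 at 24 hr (SE 0.043). The smallest rises in this ring were 0.22 for Psmc2 at 24 hr after KBrO3 alone (limma adjusted p 0.037) and 0.29 for Psmc3 at 4 hr after co-exposure (limma adjusted p 0.0016).

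The 3 beta subunits that carry the proteolytic sites of the core did not move together. Psmb7, which holds the trypsin-like site, was at 2.92, 2.90 and 2.95 in the controls, 3.64, 3.62 and 3.64 and 3.48, 3.58 and 3.48 at 4 hr and 3.61, 3.66 and 3.68 and 3.63, 3.64 and 3.58 at 24 hr. All treated arrays were above the controls, and Psmb7 rose by 0.71 and 0.59 at 4 hr and 0.72 and 0.69 at 24 hr on the log2 scale (SE 0.039, limma adjusted p of at most 2.4e-08). Psmb5, which holds the chymotrypsin-like site, was at 4.31, 4.30 and 4.30 in the controls, 4.56, 4.51 and 4.47 and 4.11, 4.10 and 4.13 at 4 hr and 4.35, 4.52 and 4.59 and 4.93, 4.97 and 4.57 at 24 hr. Its 4 hr co-exposed arrays were below the controls and its 24 hr co-exposed arrays above them. Against the controls the Psmb5 differences were 0.21 (limma adjusted p 0.054) and −0.19 (0.074) at 4 hr and 0.18 (0.095) and 0.52 (0.00027) at 24 hr, with an SE of 0.092, so that it was called in co-exposure at 24 hr. The uncalled values depended on the processing: the first was called at 0.49 after normexp correction and at 0.21 to 0.22 with other filters, weights, the 6 arrays alone or the slide as a block, the second at −0.33 under quantile normalization and with the array median as scale, and the third at 0.33, 0.33 and 0.54 under these settings and normexp correction. Without the third co-exposed array of 24 hr all 3 were called, at 0.21, −0.19 and 0.18. Psmb6, which holds the caspase-like site, was at 5.33, 5.26 and 5.35 in the controls, 5.44, 5.49 and 5.41 and 5.26, 5.31 and 5.28 at 4 hr and 5.32, 5.46 and 5.57 and 5.82, 5.82 and 5.40 at 24 hr. Like Psmb5 it was called higher in co-exposure at 24 hr, by 0.37 (SE 0.098, limma adjusted p 0.0053), and its other differences were 0.14, −0.030 and 0.14. Under quantile normalization the Psmb6 difference at 4 hr after KBrO3 alone was −0.23, a change of sign, that in co-exposure at 4 hr was called at −0.27, and that at 24 hr after KBrO3 alone was called at 0.30 and, after normexp correction, at 0.46. The third co-exposed array of 24 hr was lower than the other two for Psmb5 and Psmb6, and without it their differences were 0.65 and 0.51.

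Among the 4 beta subunits without a proteolytic site, Psmb3 rose in all 4 comparisons, by 0.62 and 0.42 at 4 hr and 0.50 and 0.73 at 24 hr (SE 0.070). Psmb2 and Psmb4 rose at 4 hr, and Psmb2, singled out after its values were seen, lay near the control level at 24 hr. The Psmb2 arrays were at 1.87, 1.91 and 1.78 in the controls, 2.84, 2.83 and 2.86 and 2.77, 2.59 and 2.69 at 4 hr and 1.73, 1.92 and 1.90 and 1.96, 1.92 and 1.80 at 24 hr. The 4 hr groups did not overlap with the controls and the 24 hr groups did, with differences of 0.99 and 0.83 at 4 hr and −0.0052 and 0.036 at 24 hr (SE 0.065, limma adjusted p 2.8e-08 and 1.3e-07 at 4 hr and 0.95 and 0.64 at 24 hr). Psmb4 changed by 0.61 and 0.52 at 4 hr and 0.085 and 0.30 at 24 hr (SE 0.042), and its value at 24 hr after KBrO3 alone was not called. Psmb1 was at 4.87, 4.83 and 4.82 in the controls, 4.93, 4.98 and 4.94 and 4.79, 4.81 and 4.82 at 4 hr and 4.66, 4.78 and 4.79 and 4.78, 4.76 and 4.59 at 24 hr. Its groups lay close to the controls, with differences of 0.11 and −0.033 at 4 hr and −0.094 and −0.13 at 24 hr (SE 0.052). At 4 hr Psmb1 was called higher after KBrO3 alone with the slide as a random or fixed block, at 0.12 and 0.13, and under quantile normalization its 4 hr differences were called at −0.17 and −0.24. Psmb1 was called lower in co-exposure at 24 hr with a limma adjusted p of 0.043, and the sign turned to 0.19 with the array median as scale and 0.18 after normexp correction. The call was also lost with the replicate block and on leaving out any 1 of 11 of the 15 arrays, with a value of −0.071 without the third co-exposed array of 24 hr.

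The 7 alpha subunits tested, which form the gated outer rings, were all called higher at 4 hr after KBrO3 alone, with a median of 0.49, and 6 after co-exposure, with a median of 0.31 (34.5% and 40.4% of all genes). At 24 hr 3 (42.9%, against 29.7% of all genes) were called higher after KBrO3 alone (median 0.11) and 6 (31.5% of all genes) after co-exposure (median 0.22). Psma2 and Psma4 rose in all 4 comparisons, by 0.65 and 0.96 at 4 hr and 0.52 and 0.51 at 24 hr for Psma2 and 0.61 and 0.69 at 4 hr and 0.65 and 0.73 at 24 hr for Psma4. Psma1 had a larger difference at 24 hr than at 4 hr, 0.21 and 0.18 at 4 hr and 0.37 and 0.53 at 24 hr (SE 0.044). Psma3, Psma5, Psma6 and Psma7 were called at 4 hr and not at 24 hr after KBrO3 alone, where their differences lay between −0.054 (Psma6) and 0.11 (Psma3).

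The 3 assembly chaperones, which escort the ATPases into the base, went different ways. Psmd9 rose by 0.56 and 0.53 at 4 hr and 0.28 and 0.56 at 24 hr and Psmd5 by 0.27 and 0.23 at 4 hr and 0.69 and 0.58 at 24 hr, the latter with its larger values at 24 hr. Psmd10, known as gankyrin, was at 1.81, 1.73 and 1.58 in the controls, 0.82, 0.82 and 0.80 and 1.10, 1.12 and 1.09 at 4 hr and 1.41, 1.31 and 1.15 and 1.15, 1.08 and 1.44 at 24 hr. Every treated array lay below every control array. On the log2 scale Psmd10 fell by 0.90 and 0.60 at 4 hr and by 0.42 and 0.48 at 24 hr (SE 0.092, limma adjusted p 1.8e-06, 6.4e-05, 0.0015 and 0.0005). The 24 hr calls were lost after normexp correction, at −0.17 and −0.26, and the call in co-exposure also with the array median as scale, at −0.16.

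**Figure D2:**
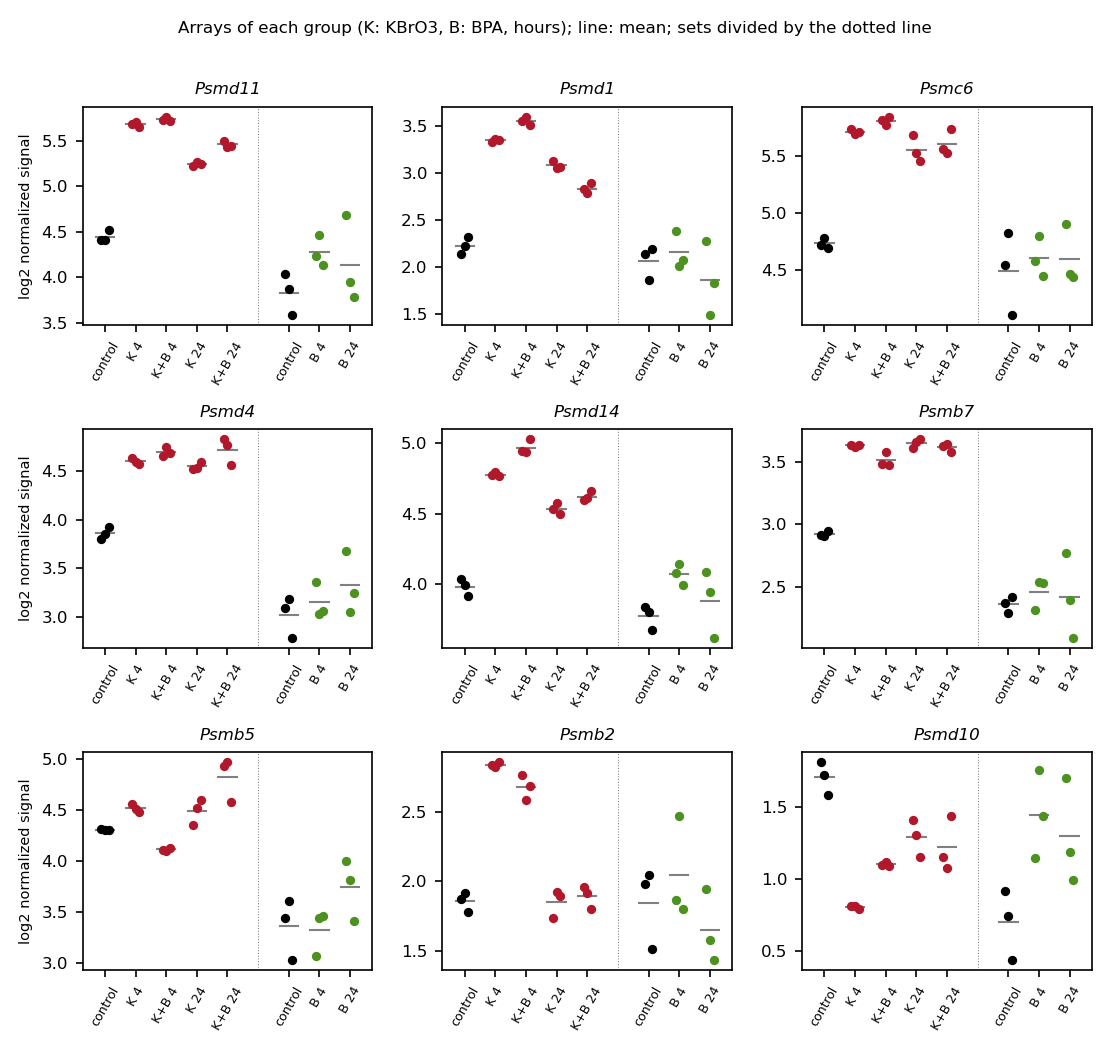
Log2 normalized signal (y axis) of 9 proteasome genes on each of the 24 arrays, by group (x axis; K is KBrO3, B is BPA, 4 and 24 are hr), with lines at group means and a dotted line between the array sets. Psmb2 was high at 4 hr and near the control level at 24 hr, Psmb5 lay below the controls in co-exposure at 4 hr and above them at 24 hr, and Psmd10 lay below the controls in every KBrO3 group.

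Set side by side, the genes of the 19S particle had larger median differences than those of the core in each of the 4 comparisons, and this split was not tested. On each array the median difference from the control mean over the 17 genes of the 19S particle was 0.75, 0.74 and 0.71 at 4 hr after KBrO3 alone, and over the 14 core genes tested it was 0.50, 0.49 and 0.48. In co-exposure at 4 hr the medians were 0.69, 0.78 and 0.82 for the particle and 0.36, 0.38 and 0.39 for the core. At 24 hr after KBrO3 alone they were 0.55, 0.61 and 0.61 and 0.055, 0.13 and 0.20, and in co-exposure 0.64, 0.61 and 0.63 and 0.42, 0.37 and 0.24. The medians of the particle were thus above those of the core on every KBrO3 array, and the core was nearest to the control level at 24 hr after KBrO3 alone, where 5 of its 14 genes (35.7%) and 16 of the 17 of the particle were called higher, against 29.7% of all genes. This count of the core moved with the processing: it was 11 under quantile normalization (34.7% of all genes), 9 with the array median as scale (34.9%), 10 after normexp correction (20.1%) and 9 without the third co-exposed array of 24 hr, which shares the estimate of the spread. At 4 hr after KBrO3 alone quantile normalization called 7 core genes higher and 3 lower, against 17 and 0 of the particle, and the median of the particle was above that of the core under each scaling in all 4 comparisons. Over all 34 genes the array medians were 0.62 ± 0.012, 0.54 ± 0.032, 0.46 ± 0.013 and 0.55 ± 0.037 (mean ± SD, n = 3) in the same order of groups. On the 1 slide that held a control and the 4 hr arrays of KBrO3 alone, the median difference was 0.62, with 33 of 34 genes higher, and the other KBrO3 groups shared no slide with a control, so that slide and group cannot be told apart there.

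**Figure D3:**
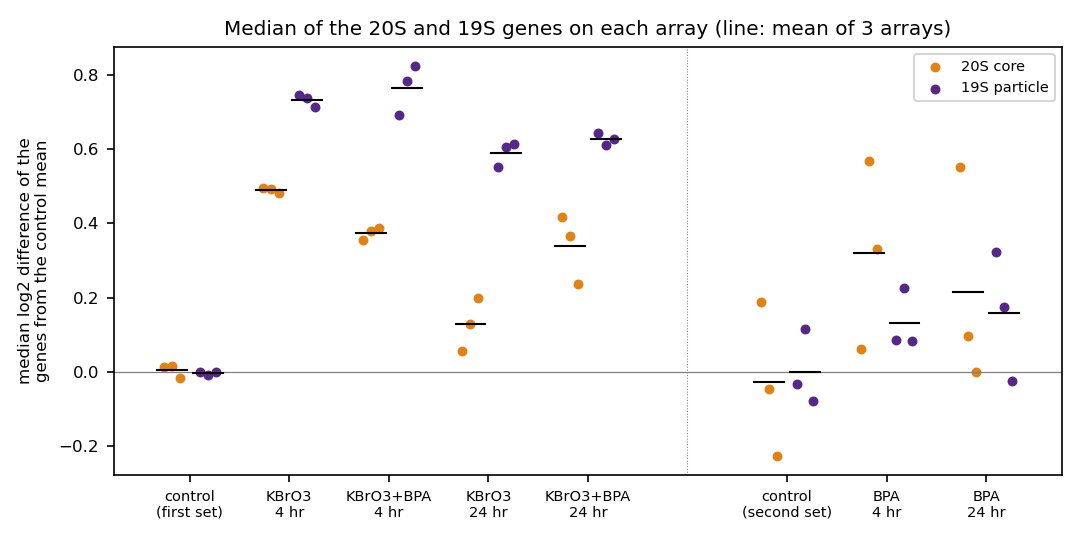
Median log2 difference from the control mean (y axis) over the core (20S) and 19S genes on each array, by group (x axis), with lines at the means of 3 arrays. The 19S medians lie above the core medians on every KBrO3 array, and in the second set, on the right, control and BPA arrays overlap.

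Promoter windows of 250 bases before to 50 bases after the gene start were taken from RefSeq (mouse build GRCm38.p6) and matched 28 of the 35 genes. They were searched on both strands for TGACNNNGC, the core of the antioxidant response element through which NRF1 and NRF2 act. Psmb5, Psmb6, Psmc6, Psmd9 and Psmd12 held it, in 5 of the 30 windows of the 28 genes, against 12.4% of all 32851 windows. The stretch around each match is shown because these 5 genes span the core, the ATPase ring, the lid and the chaperones, with the match in capitals, 5′ to 3′ along the gene.

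Psmb5: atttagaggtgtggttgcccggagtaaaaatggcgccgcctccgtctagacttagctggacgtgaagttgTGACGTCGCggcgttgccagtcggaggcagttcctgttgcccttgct
Psmb6: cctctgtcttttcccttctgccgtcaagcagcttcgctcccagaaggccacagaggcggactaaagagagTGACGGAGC
Psmc6: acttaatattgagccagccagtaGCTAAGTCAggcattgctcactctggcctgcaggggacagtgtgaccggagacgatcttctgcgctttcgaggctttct
Psmd9: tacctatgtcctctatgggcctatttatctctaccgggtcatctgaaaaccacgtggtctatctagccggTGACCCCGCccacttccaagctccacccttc
Psmd12: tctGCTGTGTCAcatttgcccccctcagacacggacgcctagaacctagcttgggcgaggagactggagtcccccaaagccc

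The stretches lie at chr14:54617996-54618112 on the minus strand for Psmb5 and, on the plus strand, at chr11:70525278-70525356 for Psmb6, chr14:45329574-45329675 for Psmc6, chr5:123228089-123228189 for Psmd9 and chr11:107479278-107479359 for Psmd12. Counted from the gene start, the match is at bases −47 to −39 in Psmb5, −9 to −1 in Psmb6, −227 to −219 in Psmc6, −31 to −23 in Psmd9 and −247 to −239 in Psmd12, and in Psmc6 and Psmd12 it reads on the opposite strand. At 4 hr after KBrO3 alone Psmc6, Psmd9 and Psmd12 rose by 0.99, 0.56 and 1.00, while the differences of Psmb5 and Psmb6, 0.21 and 0.14, were not called, although that of Psmb5 was called at 0.49 after normexp correction. The CCAAT box, bound by NF-Y, was found as the letters CCAAT in 11 of the 30 windows, against 37.4% of all windows. GAANNTTC, part of a heat shock element, was in 1 of the 30 (Psmb5), against 7.9%. CCGGAAGT, a site of ETS factors, was in 7 of the 30, of 6 genes, against 3.9%. These are matches of letters, and no binding was measured.

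With BPA added to KBrO3, proteasome genes were called both higher and lower than with KBrO3 alone. At 4 hr, 6 of 34 genes were called higher in co-exposure than in KBrO3 alone (28.8% of all genes) and 9 lower (30.3%), with a median of −0.0090 and a range of −0.45 to 0.31. The 4 hr arrays of KBrO3 alone and of co-exposure lay on different slides, from which the effect of BPA at 4 hr cannot be told apart, nor can its change to 24 hr. With the slide as a random block 4 were higher and 4 lower, with a median of 0.018. All 7 beta subunits had negative differences at 4 hr, with a median of −0.16, and Psmb1, Psmb3, Psmb5 and Psmb7 were called lower. Of these, Psmb5 alone was called under quantile normalization, where Psmb4 was at 0.058, and with the random slide block, and none after normexp correction. Psmb5 was the lowest of them at −0.40 (SE 0.092, limma adjusted p 0.0027), and its arrays of the 2 groups did not overlap. Psmd3, singled out after its values were seen, was lower by a like amount, −0.45 (limma adjusted p 0.0021): its arrays were at 7.09, 7.03 and 7.03 with KBrO3 alone and 6.56, 6.66 and 6.59 with BPA added. The genes higher with BPA at 4 hr were Psma2 (0.31), Psma6 (0.20), Psmd1 (0.20), Psmd7 (0.23), Psmd14 (0.19) and Psmd10 (0.29), the last still below its controls. For Psmd7 this held on the brightest probe, and the other two were at −0.13, called lower (limma adjusted p 0.046), and −0.0036.

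At 24 hr, 13 genes were called higher with BPA added (24.9% of all genes) and 3 lower (22.8%), with a median of 0.084. Psmb5 was higher by 0.34 (limma adjusted p 0.0097), Psmc2 by 0.34 and Psmd7 by 0.29, and Psmd1 (−0.25), Psmd6 (−0.14) and Psmd8 (−0.14) were lower. On the 1 slide that held 2 arrays of each of these groups, the median difference was 0.064 and 23 of 34 genes were higher with BPA. No gene passed the methods' thresholds in either comparison, and the split of calls moved with the scaling. At 4 hr it was 13 higher and 3 lower under quantile normalization (29.1% and 31% of all genes). With the array median as scale it was 0 and 12 (17.4% and 36.5%), and after normexp correction 0 and 0 (6% and 7.7%). At 24 hr the same scalings gave 7 and 7 (23.7% and 22.6% of all genes), 19 and 0 (33.6% and 11.4%), and 0 and 0 (7% and 5.6%). No direction of these genes as a group is therefore given for the addition of BPA.

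The difference between co-exposure and KBrO3 alone changed between the times for some genes, by the limma contrast of the 24 hr difference minus the 4 hr difference. Since the 4 hr groups lay on different slides, BPA and slide cannot be told apart in this contrast. This contrast was called higher for 12 genes (27.9% of all genes) and lower for 5 (28.0%), that is for 35.3% and 14.7% of the 34 genes. For Psmb5 it was 0.74 (SE 0.13, limma adjusted p 0.00058), from −0.40 at 4 hr to 0.34 at 24 hr. It was positive under each scaling, 0.56 under quantile normalization, 1.05 with the array median as scale and 0.69 after normexp correction, where it was no longer called. Psmd1 went the other way, from 0.20 to −0.25, a change of −0.45 (SE 0.070, limma adjusted p 0.00026). Its sign was kept under the other scalings, at −0.57, −0.14 and −0.47, but the call held under quantile normalization alone. Without the first array of KBrO3 alone at 4 hr the contrast was called higher for 7 genes, and without the first co-exposed array of 4 hr the number of genes lower with BPA at 4 hr was 5.

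**Figure D4:**
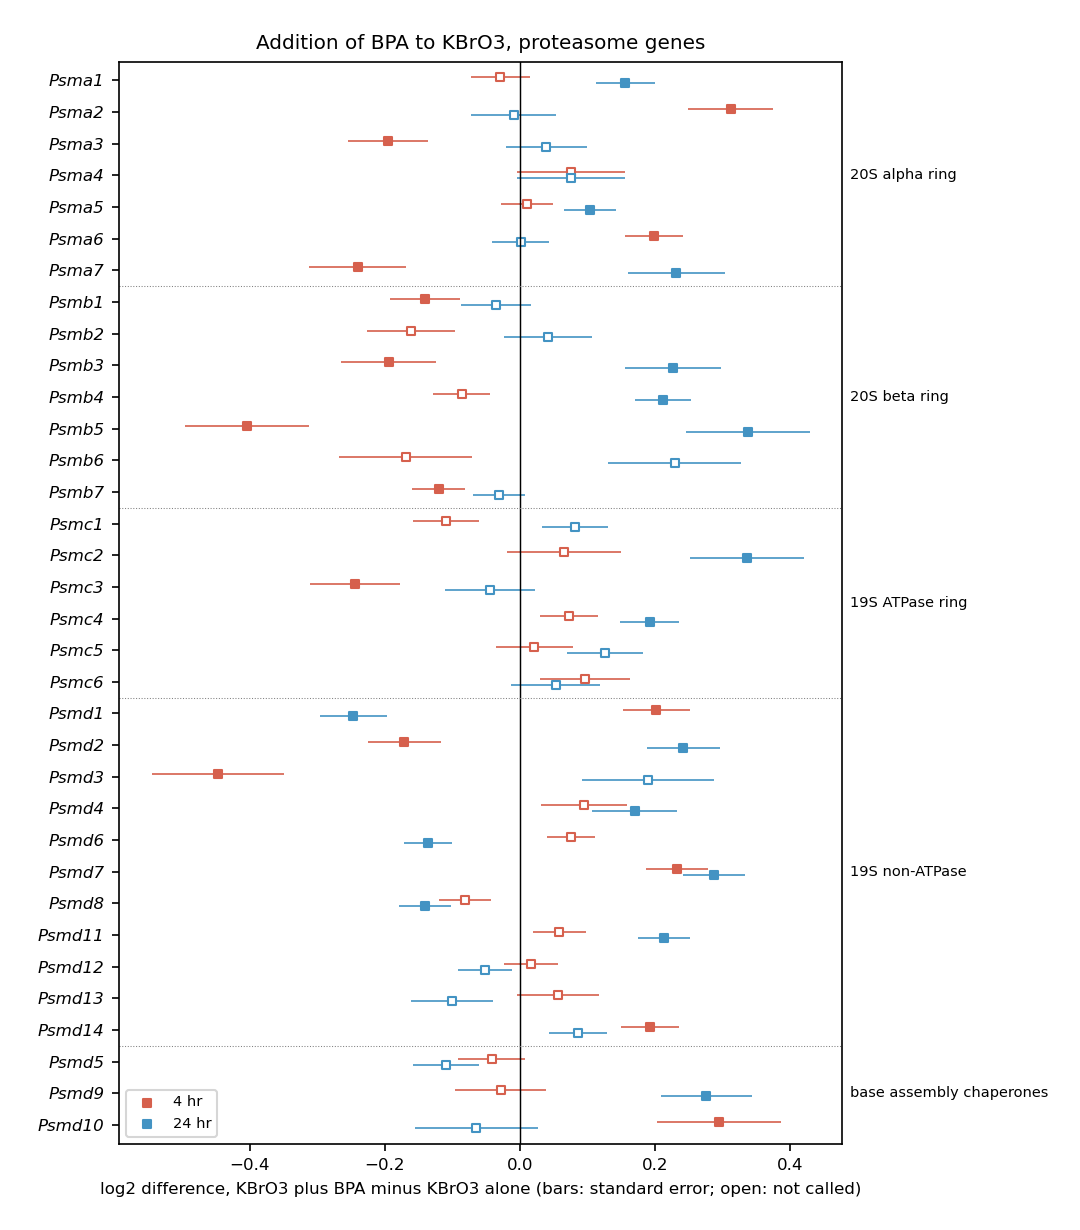
Log2 difference between co-exposure and KBrO3 alone (x axis) for 34 proteasome genes (y axis) at 4 and 24 hr. Points are limma estimates of 3 against 3 arrays, bars are standard errors and open points were not called. All 7 beta subunits lie left of 0 at 4 hr (under quantile normalization all but Psmb4), and Psmb5, Psma7, Psmb3 and Psmd2 lie on opposite sides of 0 at the 2 times.

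Between 4 and 24 hr after KBrO3 alone, 19 genes were called lower (43.1% of all genes) and 4 higher (32.5%), with a median of −0.16 against −0.14 over all genes. Psmb2 fell by 0.99 on the log2 scale (SE 0.065, limma adjusted p 3e-08) and was the 1 gene past the methods' thresholds. Psmd11 and Psmd12 fell by 0.43 and 0.43, and Psma1, Psmd5, Psmd10 and Psmd13 rose by 0.16, 0.42, 0.48 and 0.37. In co-exposure 14 genes were called lower (49.1% of all genes) and 10 higher (33.6%), with a median of −0.0056 against −0.24. Psmb2 fell by 0.79 and Psmd1 by 0.72, while Psmb5 rose by 0.71 and Psmb6 by 0.40. The direction of the group in time turned with the scaling. Under quantile normalization the median after KBrO3 alone was 0.26, with 24 genes higher and 1 lower (39.8% and 35.5% of all genes). The fall of Psmb2 was called under each scaling, at −0.80 under quantile normalization, −0.84 with the array median as scale and −0.94 after normexp correction.

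BPA alone gave no called proteasome gene in the second set. At 4 hr limma called 0 of 35 genes higher (2.77% of all genes) and 0 lower (1.47%), and 2 genes, Psma3 and Psmd10, had an unadjusted p under 0.05, against 18.8% of all genes. The median difference at 4 hr was 0.20, with a median SE of 0.22, and 27 of 35 differences were positive. At 24 hr limma called 0 higher (1.5% of all genes) and 0 lower (2.15%), 2 genes, Psmb3 and Psmd10, had an unadjusted p under 0.05 (19.3% of all genes), the median was 0.23 and 30 of 35 differences were positive. Between 24 and 4 hr it called 0 higher (1.06% of all genes) and 0 lower (2.92%), and 0 genes had an unadjusted p under 0.05 (20.8% of all genes). The SE in this set was larger than in the first, where the median SE was 0.055, and the array medians over the genes were 0.071, 0.092 and −0.20 in the controls, 0.062, 0.36 and 0.19 at 4 hr and 0.48, 0.18 and −0.0044 at 24 hr. The controls and the BPA arrays overlapped in this measure. Within slides, the BPA array of 24 hr was above the control of its slide by a median of 0.36 (28 of 34 genes higher) and 0.34 (31 of 34) on the 2 slides that held both, and at 4 hr the median was 0.062 (22 of 34) on 1 slide.

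Psmd10, which fell after KBrO3, was at 0.92, 0.75 and 0.44 in the controls of the second set, 1.14, 1.76 and 1.44 in BPA at 4 hr and 1.70, 1.19 and 1.00 at 24 hr. The BPA arrays lay above the controls at both times, with differences of 0.74 (95% confidence interval 0.17 to 1.32, limma adjusted p 0.15) and 0.59 (0.018 to 1.17, limma adjusted p 0.26), not called. Psmd11 was at 4.03, 3.87 and 3.59 in these controls, 4.23, 4.46 and 4.14 at 4 hr and 4.68, 3.95 and 3.78 at 24 hr. Its intervals, −0.14 to 1.04 at 4 hr and −0.28 to 0.90 at 24 hr, were wide. Psmb5 was at 3.44, 3.60 and 3.03 in the controls, 3.07, 3.44 and 3.46 at 4 hr and 4.00, 3.81 and 3.41 at 24 hr, and the groups overlapped, with intervals of −0.58 to 0.50 and −0.16 to 0.92. Psmb7 had intervals of −0.37 to 0.57 and −0.41 to 0.53, Psmd4 of −0.37 to 0.64 and −0.20 to 0.81, and Psmd14 of −0.12 to 0.72 and −0.31 to 0.53.

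The genes with further probes gave 14 more probes in the first set. At 4 hr all 14 had the sign and the call of the brightest probe in both comparisons with the controls. At 24 hr 4 of the 14, of Psmc2, Psmc6, Psmd7 and Psmd12, had another call after KBrO3 alone and 3 after co-exposure. A dimmer probe of Psmc2 was called lower at 24 hr, at −0.55 and −0.34, where the brightest was called higher, at 0.22 and 0.56. For Psmc6 the other probe was at 0.10 and 0.039 at 24 hr, against 0.83 and 0.88, and a further probe of Psmd12 was at 0.30 and 0.28, against 0.57 and 0.52. The other probe of Psmd4, designed on another transcript record, was higher by 2.15 and 1.99 at 4 hr, against 0.74 and 0.84 on the brightest, and by 0.74 and 0.83 at 24 hr. For the addition of BPA at 4 hr, 7 of the 14 probes had the opposite sign to the brightest and 7 another call. Besides Psmd7, given above, these were genes whose brightest probe was not called. Another probe each of Psmc4, Psmc6, Psmd9 and Psmd12 was called higher, at 0.14, 0.60, 0.30 and 0.62, and another of Psma4 lower, at −0.15. For the change of the difference between co-exposure and KBrO3 alone from 4 to 24 hr, 8 of the 14 probes had another call. Where the brightest probes were not called, the other probe of Psmc6 was called lower at −0.67 and both others of Psmd12 at −0.64 and −0.30. Called higher were the other probes of Psma4 at 0.24 and Psmc2 at 0.26 and both others of Psmd7 at 0.30 and 0.36. For Psmd9, called higher at 0.30 on its brightest probe, the other was at −0.12 and not called.

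Other genes of the pathway, from lists chosen by role, are given for the same comparisons. Their counts stand against the shares of all genes given above, 34.5% higher and 36.6% lower and 40.4% and 38.3% at 4 hr and 29.7% and 36.7% and 31.5% and 38.8% at 24 hr for KBrO3 alone and then co-exposure, and no list was tested against them. The immunoproteasome subunits, which replace the catalytic subunits in antigen-presenting conditions, were called lower at 4 hr (3 of 3 in both comparisons) and in 2 of 3 at 24 hr, with Psmb8 at −0.44, −0.27, −0.45 and −0.38. Of 4 tested activators and inhibitors, 3 were called higher at 4 hr and 2 at 24 hr. The nuclear activator Psme3 was at 0.69 and 0.89 at 4 hr and at 0.076, not called, and 0.41 at 24 hr. The inhibitor Psmf1 was called higher throughout, at 0.39 and 0.34 at 4 hr and 0.73 and 1.14 at 24 hr. Psme1, of the interferon-induced activator, was called lower throughout. Among 6 tested proteins that bind the assembled proteasome, 4 were called higher at 4 hr, with the ubiquitin receptor Adrm1 at 1.46 and 0.92 and the deubiquitinase Usp14 at 1.06 and 0.71, and at 24 hr 2 were called higher and 2 lower after KBrO3 alone and 3 higher and 1 lower after co-exposure. Pomp, the 1 core assembly chaperone of 5 that was tested, was called higher at 4 hr after KBrO3 alone and in none of the other 3 comparisons.

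A list of 9 genes held regulators of the proteasome or of its genes. Of these, 7 were called higher and 2 lower at 4 hr after KBrO3 alone, and 8 higher and 0 lower with co-exposure. Nfe2l2 was at 1.35 and 1.39 at 4 hr and −0.28 and −0.049 at 24 hr, and Nfe2l1 at −0.27 and 0.18 at 4 hr and −0.74 and −0.34 at 24 hr. Ddi2, the protease that cleaves and activates NRF1, was at 1.59 and 1.41 at 4 hr and 0.19 and 0.29 at 24 hr. Ngly1, the deglycosylase that also acts on NRF1, was at −1.21 and −0.12 at 4 hr and −0.14 and −0.47 at 24 hr, called lower in the first and the last. In this list 5 were called higher and 3 lower at 24 hr after KBrO3 alone, and 4 and 3 after co-exposure. After BPA alone 1 gene of this list was called higher at each time, against 2.77% and 1.5% of all genes at 4 and 24 hr. None was called lower, against 1.47% and 2.15%. The called genes were Zfand5 at 4 hr (0.91, limma adjusted p 0.027) and Nfe2l1 at 24 hr (0.88, limma adjusted p 0.047). Nfe2l1 was at 0.72 at 4 hr (limma adjusted p 0.082). Of 15 genes for ubiquitin and its delivery to the proteasome, 14 were called higher at 4 hr after KBrO3 alone and 13 with co-exposure, with medians of 1.04 and 1.21, and 10 at 24 hr in each.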

How the data were processed

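Agilent 4x44 one-color arrays (24 arrays) were hybridized with Cy3-labeled RNA of Ku70-/- MEFs. The deposited intensity values are the processed signals of the scanner files, for which the authors had subtracted background with Agilent Feature Extraction (12.0 per the submitters' notes, 9.5.3.1 and 12.0.0.7 per the file headers of the first and second set); the deposited value table held the same 1080432 signals. The sets were scanned on different scanners and analysed apart.

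From these, log2 signals were taken minus each array's 75th percentile, control spots and outlier spots were left out, spots of a probe were averaged, and a probe was tested if well above background on all arrays of at least 1 group. limma 3.58.1 (R 4.3.3, Python 3.11.15) was fitted per set over all groups with Benjamini-Hochberg adjustment over all probes, and p under 0.05 was called. The fit was checked on simulated arrays with independent noise and no slide effect, so that error rates under the layout of the slides were not checked. Genes were represented by their brightest probe. Values per array are given for Psmb5, Psmb6, Psmb7, Psmd4, Psmd14 and, in each comparison with controls, the called genes with the 3 largest rises and falls; Psmb2 and Psmd3 were added after their values were seen. Membership followed from the gene names; the family, lists and rules were chosen with earlier results of these data known. Alternatives were the methods' thresholds, other scalings and background corrections, dim-probe filters, software-error weights, slide and replicate blocks, the mean over probes, and leaving out each array. The design text calls the replicates independent experiments; the methods give 5 and 25 hr for BPA alone where the labels give 4 and 24.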

Additional observations from a re-analysis of the deposited data

Results flagged for a closer look

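The difference between co-exposure and KBrO3 alone was compared between 4 and 24 hr with a limma contrast, and for some proteasome genes it differed between the times. The 4 hr groups lay on different slides, so that BPA and slide cannot be told apart in this contrast. The contrast was higher at 24 hr for 12 genes and lower for 5 of 34 (35.3% and 14.7%), against 27.9% and 28.0% of all genes, and leaving out 1 array at a time gave 7 to 17 higher. The split turned to 3 higher and 9 lower under quantile normalization (27.8% and 27.2% of all genes). With the array median as scale it was 23 and 0 (41.7% and 12.7%), so that no direction is given for the genes as a group. The genes with the larger changes on the log2 scale were Psmb5 (0.74, limma adjusted p 0.00058), Psmd3 (0.64, 0.0023), Psma7 (0.47, 0.0022), Psmd1 (−0.45, 0.00026), Psmd10 (−0.36, 0.034) and Psma2 (−0.32, 0.01).

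Under quantile normalization and the array median as scale the Psmb5 contrast was called with the same sign, at 0.56 and 1.05, as was that of Psmd3, at 0.33 and 0.95. The contrasts of Psma2 and Psmd10 were near 0 with the array median as scale, at −0.010 and −0.048. After normexp correction none of the proteasome genes had a called contrast by limma, and what moved these genes was not tested.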

How the results depend on the processing

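The medians of the proteasome genes against the controls kept their direction under every alternative run. For KBrO3 alone and co-exposure at 4 hr and then at 24 hr they were 0.35, 0.43, 0.60 and 0.58 under quantile normalization and 0.89, 0.83, 0.73 and 0.83 after normexp background correction, and with the array median as scale 0.39, 0.63 and 0.84 for the last 3. Normexp correction moved the median of all genes by up to −0.47 and the array median by up to 0.46. Under the methods' thresholds the counts higher were 14, 13, 10 and 12.

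For the addition of BPA, the shares of all genes under each scaling are given in the Results. Quantile normalization gave a median of 0.060 at 4 hr (13 higher and 3 lower). At 24 hr it gave −0.014 (7 higher and 7 lower), reversed. The array median as scale gave −0.15 (0 higher) at 4 hr and 0.25 (0 lower) at 24 hr. Normexp correction called 0 higher and 0 lower at 4 hr and 0 higher and 0 lower at 24 hr, and the methods' thresholds 0 higher and 0 lower and 0 higher and 0 lower. With the 6 arrays compared alone, 14 were lower at 4 hr and 5 higher and 1 lower at 24 hr, and with the slide as a random block the 4 hr median was 0.018 with 4 lower; the mean over probes gave −0.036.

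For the change of that difference between the times, quantile normalization gave −0.068, reversed (3 higher and 9 lower, 27.8% and 27.2% of all genes). The array median gave 0.42 (23 higher and 0 lower, 41.7% and 12.7%) and normexp correction 0.057 (0 higher and 0 lower, 6.2% and 4.2%). The methods' thresholds gave 0 higher and 0 lower, and the random slide block 3 lower.

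From 4 to 24 hr after KBrO3 alone, quantile normalization gave 0.26, reversed (24 higher and 1 lower, 39.8% and 35.5% of all genes). The array median gave −0.013 (6 lower, 34.7% of all genes) and normexp correction −0.10 (2 lower, 23.8%). The methods' thresholds gave 0 higher and 1 lower, the random slide block −0.19 and the mean over probes −0.21. In co-exposure quantile normalization gave 0.13 (16 higher and 6 lower, 39.8% and 40% of all genes). The array median gave 0.45 (25 higher and 2 lower, 48.1% and 30.3%) and normexp correction 0.038 (3 higher and 4 lower, 22% and 23.4%). The methods' thresholds gave 0 higher and 2 lower, the random slide block −0.065, the mean over probes −0.12 and the fixed slide block −0.077. The random slide block gave 0.46 for KBrO3 alone at 24 hr, and the fixed slide block 0.26 for BPA alone at 24 hr against 4 hr.

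Reversed for single genes were Psmb1 (−0.17) and Psmb6 (−0.23) at 4 hr after KBrO3 alone under quantile normalization, and Psmb1 in co-exposure at 24 hr with the array median (0.19) and normexp correction (0.18). The cause of these differences was not tested.

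Leaving out 1 array at a time gave 29 to 33, 28 to 29, 22 to 28 and 27 to 30 genes higher against the controls, in the order above, and a median of 0.51 to 0.57 in co-exposure at 24 hr. It gave 5 to 13 lower and 9 to 15 higher for the addition of BPA at 4 and 24 hr, 7 to 17 higher and a median of 0.098 to 0.16 for its change between the times, and −0.042 to 0.0049 for co-exposure from 4 to 24 hr.

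The replicate numbers did not pair the arrays: residuals of same-numbered arrays correlated at a mean of −0.029 (KBrO3 arrays and their controls) and 0.0020 (BPA arrays and theirs). With the replicate block, 29, 29, 23 and 29 genes were higher against the controls, the addition of BPA gave 6 higher and 7 lower at 4 hr and 11 higher and 3 lower at 24 hr, and BPA alone had medians of 0.20 and 0.23.

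The 3 arrays a group limit the precision, most in the second set, where the SE was 0.22 at the median, and the first-set controls have no 24 hr arrays.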
